A study of Mus musculus with 360 samples.

Results

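Actin and a set of proteins that bind it were followed through 10 genes of the mouse leukemia line C1498: Actb, Actg1, Tmsb4x, Tmsb10, Cfl1, Pfn1, Arpc2, Arpc1b, Coro1a and Myl6. The members were taken by symbol, and all 10 were found among the 24781 genes of the expression table. C1498 is an established mouse line described as acute myeloid leukemia. The treatment was 10 min at 45 °C, with 37 °C as the control, and cells were followed under a microscope and picked one by one with an automated live-imaging and picking instrument. The 37 °C arm gave 11 cells at -1 h, which is before heating, and 11, 6, 6 and 11 cells at 1, 5, 10 and 15 h from the end of the 10 min at that temperature. The 45 °C arm gave 6 cells before heating and, after it, 13, 52 and 21 cells at 1, 10 and 15 h. All the remaining ones, 61.9% of the 360 cells, were 45 °C cells at 5 h. No drug, transgene or sort was named for any group. The 45 °C cells picked before heating had not yet been heated, so that 6 of the 10 groups, with 51 cells in all, were unheated.

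Actin exists as single subunits and as filaments, and cells keep the balance between these forms with a large set of binding proteins. Thymosin beta proteins and profilin hold or deliver the subunits, cofilin takes filaments apart, the Arp2/3 complex starts branches, coronins act on older filaments, and myosin pulls on filaments. In blood cells this system shapes the cell cortex and drives movement, and many of its genes, the actin genes among them, are targets of the transcription factor SRF and its actin-sensing cofactors.

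Each sample was 1 cell, and no label named a culture, so each group was read as 1 sample and no test between groups was made. Levels are molecules counted by molecular barcode (UMIs) per 1000000 UMIs of the group (CPM), after the cells of the group were summed. They are shares of all RNA counted and are not scaled by gene length, so levels are compared between groups and not between genes. Intervals are exact 95% intervals, and those on levels, ratios and shares of UMIs cover counting error only. Those on a share of cells cover the drawing of cells within 1 group, and cells are not replicates of a condition. Totals per group were between 173274 UMIs (37 °C, 10 h) and 6.8091e+06 UMIs (45 °C, 5 h), and medians per cell ran from 18741 UMIs in heated cells at 10 h to 40544 UMIs in the 37 °C arm at -1 h. The label was checked against marker genes. The leukocyte gene Ptprc stood at 501.5 CPM in unheated cells, and the T cell receptor genes Cd3e and Cd3g stood at 199.2 and 230.1 CPM. For the rest of the T cell list, Cd3d stood at 4.71 CPM and Cd2 at 2.09 CPM in unheated cells, and Cd4 and Cd8a had 0 UMIs there. Of the 6 myeloid markers, Spi1, Lyz2, Elane, Csf1r and S100a8 had 0 UMIs in all 360 cells and Mpo had 14, so the myeloid label was not borne out by these markers. A list of 8 fibroblast and muscle genes, which holds the muscle actins, summed to at most 7.65 CPM in any group.

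The 2 pairs of close relatives among the members are shown first, because Tmsb4x and Actg1, the members with the lowest ratios after heating, belong to them. The first bases of the coding sequences of Actb and Actg1, which encode beta and gamma actin of non-muscle cells, are printed 5′ to 3′ from the annotated mouse transcripts (GRCm38), with capitals at the 24 positions that differ. Over the whole coding length of 1128 bases, 88.7% of positions were identical.
Actb: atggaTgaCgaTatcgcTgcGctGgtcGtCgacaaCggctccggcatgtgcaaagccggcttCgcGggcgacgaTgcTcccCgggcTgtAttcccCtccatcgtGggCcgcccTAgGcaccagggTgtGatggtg
Actg1: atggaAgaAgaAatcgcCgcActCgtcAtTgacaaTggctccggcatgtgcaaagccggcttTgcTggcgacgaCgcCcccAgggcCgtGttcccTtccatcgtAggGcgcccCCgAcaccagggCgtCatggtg

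Tmsb4x and Tmsb10 encode the small proteins thymosin beta-4 and thymosin beta-10, which bind single actin subunits. Their coding sequences are of equal length and are printed whole, in the same way, and capitals mark the 40 positions that differ, and 70.4% of positions were identical.
Tmsb4x: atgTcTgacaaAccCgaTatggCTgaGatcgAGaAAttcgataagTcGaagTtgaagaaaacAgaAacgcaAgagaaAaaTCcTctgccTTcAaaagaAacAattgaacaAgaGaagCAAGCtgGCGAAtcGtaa
Tmsb10: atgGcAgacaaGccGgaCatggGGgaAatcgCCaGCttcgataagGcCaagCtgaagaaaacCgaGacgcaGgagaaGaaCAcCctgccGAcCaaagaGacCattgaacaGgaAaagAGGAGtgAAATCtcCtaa

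In mm10, Actb lies on chr5:142903115-142906754 and Actg1 on chr11:120345690-120348542, both on the minus strand. Tmsb4x lies on chrX:167207093-167209315 and Tmsb10 on chr6:72957347-72958748, also on the minus strand. All 10 members are annotated as protein-coding genes on 8 chromosomes. Estimated counts that were not whole, which can arise where reads match more than 1 gene, were most frequent for Actb, at 74.7% of its values above 0. The fractional parts themselves held 0.153% of the UMIs of Actb and at most 0.205% of those of any member. With the whole part of each value alone, no member's log2 ratio moved by more than 0.018. That change drops less than 1 UMI from each value, so it cannot show how many reads were shared between genes. Values that were not whole held 78.1% of the UMIs of Actb. The part of shared reads in the levels of Actb and Actg1 was not tested.

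Together, the 10 genes made up 2.38% of all UMIs in the 37 °C arm before heating, and 2.16%, 1.95%, 2.84% and 2.25% at 1, 5, 10 and 15 h. In the 45 °C arm they made up 2.50% before heating, and 2.42%, 1.88%, 1.59% and 1.71% at those times. The 3 lowest groups were thus the heated ones from 5 h on, while the heated cells at 1 h lay within the range of the unheated groups. Relative to control cells of equal time, the summed log2 ratio was 0.07 (0.02 to 0.12) before heating, and 0.17 (0.12 to 0.21), -0.05 (-0.09 to -0.01), -0.84 (-0.89 to -0.79) and -0.40 (-0.44 to -0.36) at 1, 5, 10 and 15 h. The control group at 10 h, with 6 cells, had the highest share of all groups. Against all 6 unheated groups summed, the ratios after heating were 0.07, -0.29, -0.54 and -0.43. The value at 5 h depended on the scaling and on single cells: it was 0.16 with TMM scaling, 0.03 with all cells thinned to 5000 UMIs, and 0.06 without cell 1 of the 37 °C group at 5 h.

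All 10 members were measured at every time, which required at least 20 UMIs in the pair of groups and at least 10 CPM in one of them. The median log2 ratio of the members was 0.25, 0.003, -0.55 and -0.44 at 1, 5, 10 and 15 h, beside -0.14, -0.23, 0.003 and -0.02 over all genes measured. Over the 225 genes with a mean of at least 500 CPM, a level chosen after the values had been seen, the median was 0.05, 0.19, 0.06 and -0.09, so that at 5 h the members' median lay above that of all genes and below that of abundant genes. TMM scaling, which sets the bulk of genes near 0, moved all log2 ratios up by 0.17 at 1 h and 0.21 at 5 h, and by at most 0.06 in size at the other times. Lower than the 37 °C group of the same time were 1, 5, 10 and 9 members, beside 63%, 63.2%, 49.5% and 51.8% of all genes measured and 34.7%, 25.3%, 44% and 67.6% of the abundant genes. At least 1.5-fold lower were 0, 1, 5 and 4 members, beside 19.6%, 30.5%, 19.2% and 12% of all genes and 1.33%, 3.11%, 8.89% and 6.22% of the abundant genes. The counts at 10 and 15 h include Pfn1, whose intervals reached both sides of 0 (-1.67 to 0.66 and -1.45 to 0.27). Below all 6 unheated groups were 0, 3, 6 and 6 members at 1, 5, 10 and 15 h, beside 16.7%, 18.5%, 15.3% and 13.3% of all genes. They were Actg1, Tmsb4x and Coro1a at 5 h, these and Actb, Arpc2 and Arpc1b at 10 h, and Actb, Actg1, Cfl1, Arpc1b, Coro1a and Myl6 at 15 h. For some of them the counting interval overlapped that of the lowest unheated group. These were Coro1a at 5 h, Arpc2 and Arpc1b at 10 h, and Cfl1, Arpc1b and Myl6 at 15 h. Over the alternatives in processing, the count was between 2 and 4 at 5 h, between 4 and 7 at 10 h and between 5 and 8 at 15 h. Among the abundant genes, the shares below all unheated groups were 3.56%, 12.9%, 21.8% and 42.2%, so that at 15 h the members' count lay closer to the share of abundant genes. The abundant genes include the members that reach 500 CPM on average, which Pfn1, Arpc1b and Myl6 do not. Above all 6 unheated groups at 1 h were Cfl1 and Myl6, beside 9.20% of all genes measured and 27.1% of the abundant genes. For both, the counting interval overlapped that of the highest unheated group.

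**Figure D1:**
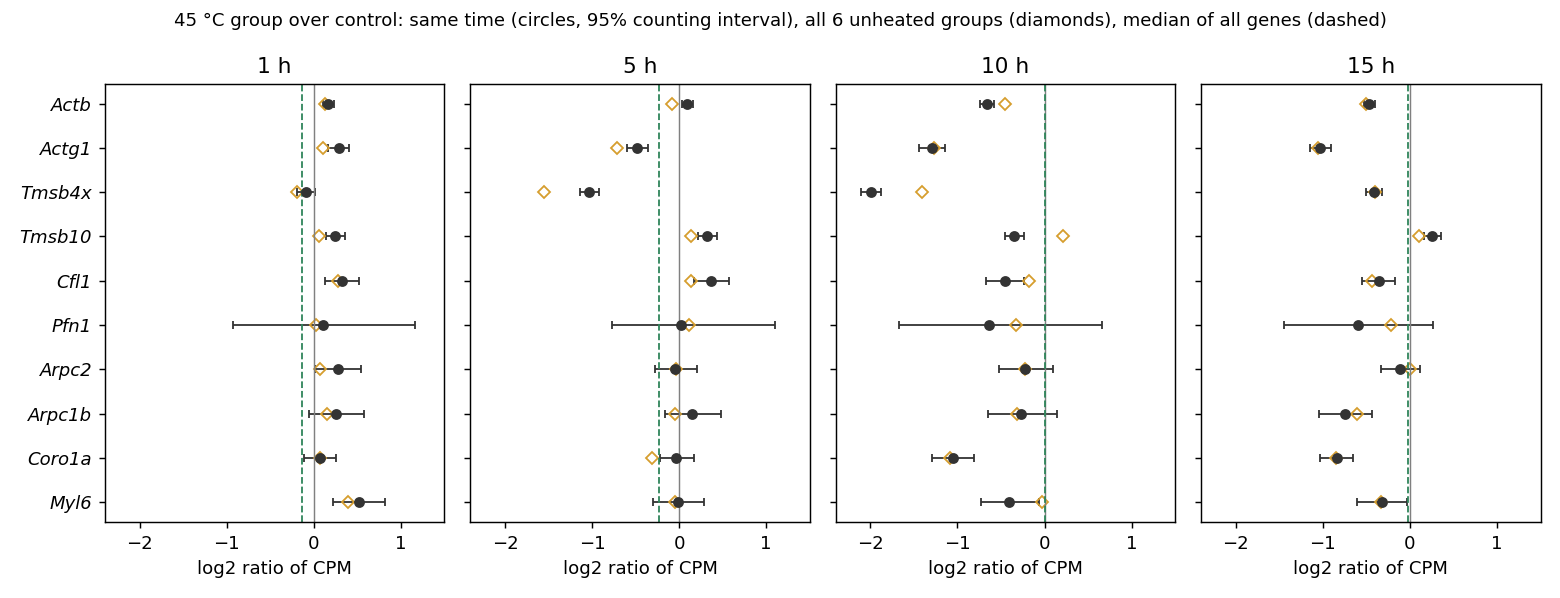
Log2 ratio of CPM on the x axis for each of the 10 genes on the y axis, at 1, 5, 10 and 15 h. Circles are the 45 °C group over the 37 °C group of the same time with the 95% counting interval, diamonds are the 45 °C group over all 6 unheated groups summed, and the dashed line is the median of all genes measured; Tmsb4x is the lowest gene at 5 h (-1.03) and 10 h (-2.0) and Actg1 at 15 h (-1.03).

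Actb was at 9379, 8937, 8113, 10612 and 8986 CPM in the 37 °C arm before heating and at 1, 5, 10 and 15 h. In the 45 °C arm it was at 9779 CPM before heating and at 10048, 8663, 6715 and 6500 CPM after it. The heated groups at 10 and 15 h were therefore the lowest, and their counting intervals overlapped. By cell, the lowest, median and highest values at 10 h were 0, 6376 and 17670 CPM after 45 °C and 8337, 10443 and 13647 CPM at 37 °C. At 15 h they were 334, 5367 and 11726 CPM after 45 °C and 4704, 8999 and 15883 CPM at 37 °C. The log2 ratio to the control of the same time was 0.17 (0.10 to 0.23), 0.09 (0.03 to 0.16), -0.66 (-0.74 to -0.59) and -0.47 (-0.53 to -0.41) at 1, 5, 10 and 15 h. At 5 h it was -0.08 against all unheated groups, -0.18 against the 45 °C cells before heating and -0.01 without cell 3 of the 37 °C group at 5 h, so no direction is read there.

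Actg1 was at 3474, 2601, 2506, 2987 and 2891 CPM in the 37 °C arm in the order of time and at 3041 CPM in the 45 °C arm before heating. In heated cells it was at 3171 CPM at 1 h, 1798 CPM at 5 h, 1216 CPM at 10 h and 1417 CPM at 15 h. The last 3 of these were the lowest of the 10 groups, and the counting interval of each was apart from that of its neighbours in the order of levels. The lowest, median and highest cell was at 0, 1683 and 4558 CPM at 5 h, at 0, 825 and 4425 CPM at 10 h, and at 147.02, 693 and 4587 CPM at 15 h. In the 37 °C cells of the same times the medians were 2264, 3184 and 2922 CPM. The cell ranges overlapped at each time, and at 10 h the highest control cell was at 5762 CPM. The log2 ratio was 0.29 (0.17 to 0.40), -0.48 (-0.60 to -0.36), -1.30 (-1.45 to -1.15) and -1.03 (-1.15 to -0.91), and 2.87% and 2.08% of the genes measured at 10 and 15 h had a lower ratio.

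Within the actin pair, the share of Actb does not depend on the group's total. Actb made up 75.7% of the UMIs of both genes in all unheated cells, with a range of 73% to 78% over the 6 unheated groups. In heated cells it made up 76% (74.9% to 77.1%) at 1 h, 82.8% (82.5% to 83.1%) at 5 h, 84.7% (83.8% to 85.5%) at 10 h and 82.1% (81% to 83.1%) at 15 h. The heated groups from 5 h on thus lay above all unheated groups. By cell, 13.9% of cells at 5 h (9.64% to 19.1%), 22 of the 51 cells with a UMI of either gene at 10 h, and 5 of 21 at 15 h had a share above the highest unheated cell, which was at 90.1%. In the other direction, 1 cell at 5 h lay below the lowest unheated cell, at 57.5%.

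Tmsb4x had the lowest ratio of all members at 5 and 10 h, but not at 15 h. In the 37 °C arm it was at 3862, 3845, 2876, 6216 and 4148 CPM in the order of time, and at 4864 CPM in the 45 °C arm before heating. After 45 °C it was at 3616 CPM at 1 h, 1408 CPM at 5 h, 1557 CPM at 10 h and 3127 CPM at 15 h. The heated groups at 5 and 10 h were the lowest of all, whereas the heated group at 15 h stood above the 37 °C group at 5 h, with overlapping counting intervals. The lowest, median and highest cell at 5 h was at 0, 991 and 6953 CPM after 45 °C and at 969, 2901 and 4530 CPM at 37 °C. At 10 h these values were 0, 1115 and 7842 CPM after 45 °C and 4425, 6480 and 8012 CPM at 37 °C, and at 15 h they were 296, 2565 and 6914 CPM against 1418, 4349 and 5930 CPM. Below the lowest of the 51 unheated cells were 49.3% of the cells at 5 h (42.6% to 56.1%), 22 of 52 at 10 h and 5 of 21 at 15 h, and 0 of 13 at 1 h.

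The log2 ratio of Tmsb4x to the control of the same time was -0.09 (-0.19 to 0.01) at 1 h, -1.03 (-1.14 to -0.92) at 5 h, -2.0 (-2.11 to -1.88) at 10 h and -0.41 (-0.50 to -0.32) at 15 h. The control at 10 h was the highest of the unheated groups for this gene. Against all unheated groups the ratio was -1.55 at 5 h and -1.40 at 10 h, and with the 45 °C cells before heating as control it was -1.79 and -1.64, so that the size at both times, but not the direction, depended on the control. Before heating, the 45 °C arm stood at 0.33 (0.22 to 0.45) over the 37 °C arm.

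Tmsb10 followed another course. It was at 3311, 2779, 2781, 4646 and 2853 CPM in the 37 °C arm and at 3473 CPM in the 45 °C arm before heating. After 45 °C it was at 3306, 3486, 3657 and 3411 CPM at 1, 5, 10 and 15 h, all within the range of the unheated groups. The lowest, median and highest cell at 5 h was at 390, 3163 and 13210 CPM after 45 °C and at 1761, 1950 and 5007 CPM at 37 °C. The log2 ratio was 0.25, 0.32 (0.22 to 0.44), -0.35 (-0.46 to -0.23) and 0.26 at the 4 times, and the ratio at 10 h was 0.21 (0.15 to 0.27) against all unheated groups.

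**Figure D2:**
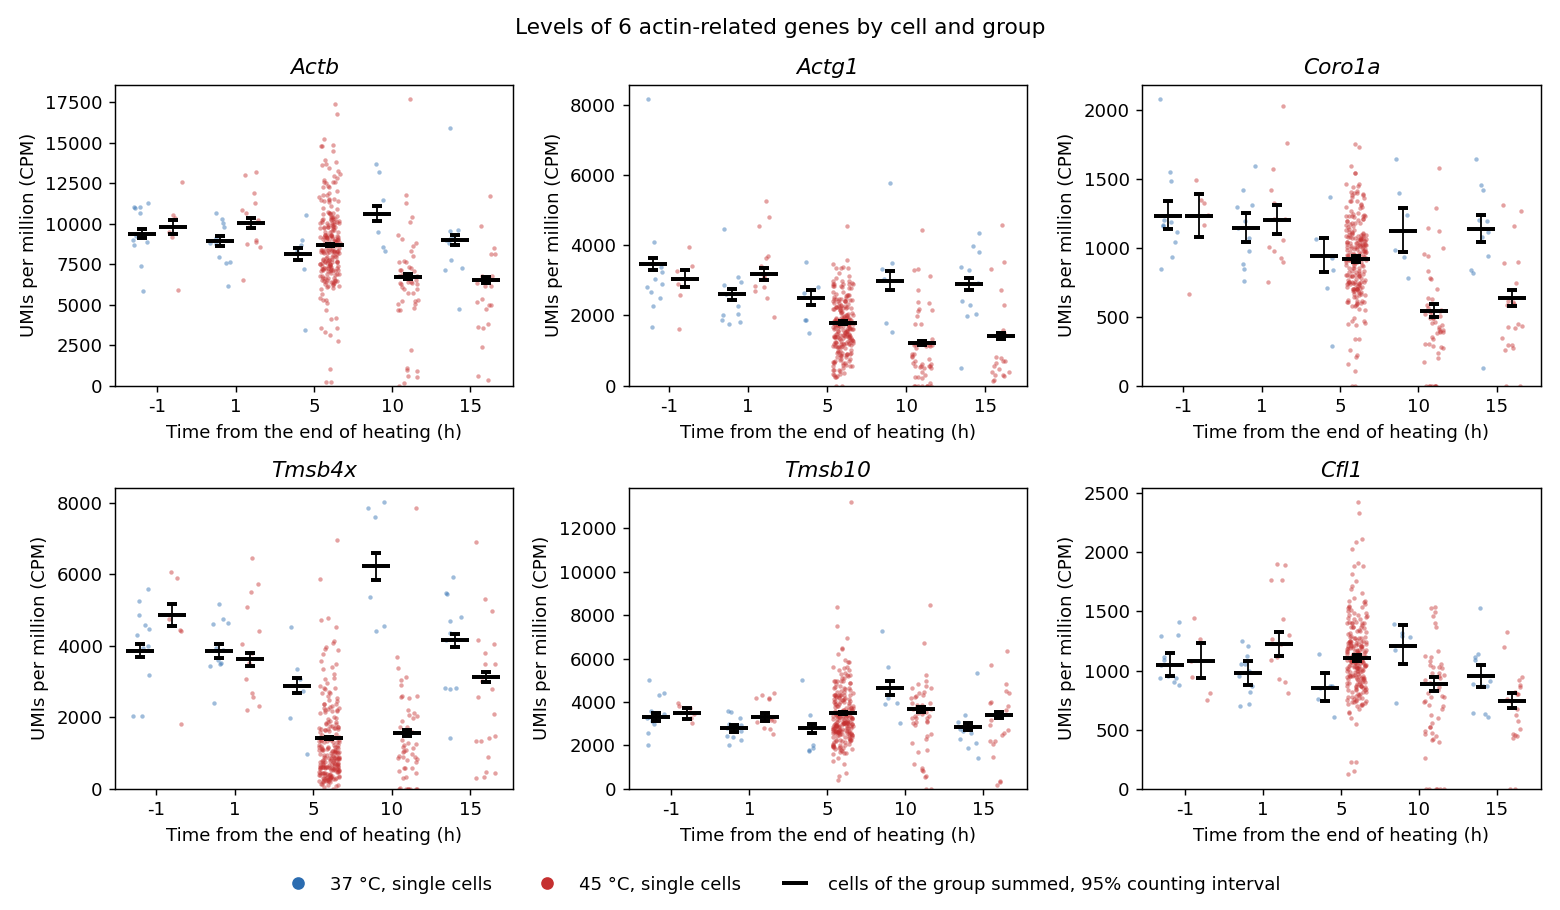
CPM on the y axis for 6 of the genes, by time from the end of heating on the x axis; blue and red points are single cells of the 37 °C and 45 °C arms, and black bars are the cells of a group summed with the 95% counting interval. Actg1 stands lowest in heated groups from 5 h on, Coro1a at 10 and 15 h and Tmsb4x at 5 and 10 h (1408 CPM at 5 h), whereas Tmsb10 stays within the unheated groups (2779 to 4646 CPM).

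As a share of the UMIs of both thymosin genes, Tmsb4x made up 56.5% (55.7% to 57.4%) in all unheated cells, with a range of 50.8% to 59.2% over the 6 unheated groups. After 45 °C it made up 52.2% (50.4% to 54%) at 1 h, 28.8% (28.3% to 29.3%) at 5 h, 29.9% (28.6% to 31.1%) at 10 h and 47.8% (46.3% to 49.3%) at 15 h. The heated group at 1 h lay inside the unheated range, and the later 3 lay below it, by a wide margin at 5 and 10 h. Put as a ratio, unheated cells held 1.30 UMIs of Tmsb4x for each UMI of Tmsb10, and heated cells held 0.404 at 5 h, 0.426 at 10 h and 0.916 at 15 h.

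By cell, the lowest, median and highest share of Tmsb4x was 32.5%, 56.5% and 68.2% in unheated cells and 0%, 23.6% and 71.3% in heated cells at 5 h. The middle 80% of those heated cells lay between 9.06% and 45.1%. Below the lowest unheated cell were 70.4% of the cells at 5 h (63.9% to 76.3%), 32 of the 50 cells with a UMI of either gene at 10 h, and 2 of 21 at 15 h. Below the median unheated cell were 97.3% of the cells at 5 h (94.2% to 99%), 48 of 50 at 10 h and 16 of 21 at 15 h. Without cells of under 10000 UMIs the shares of the summed groups were 28.7%, 29.6% and 47.9%, and with any single heated cell left out they stayed between 28.5% and 29.2%, 29% and 30.6%, and 44% and 48.8%.

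**Figure D3:**
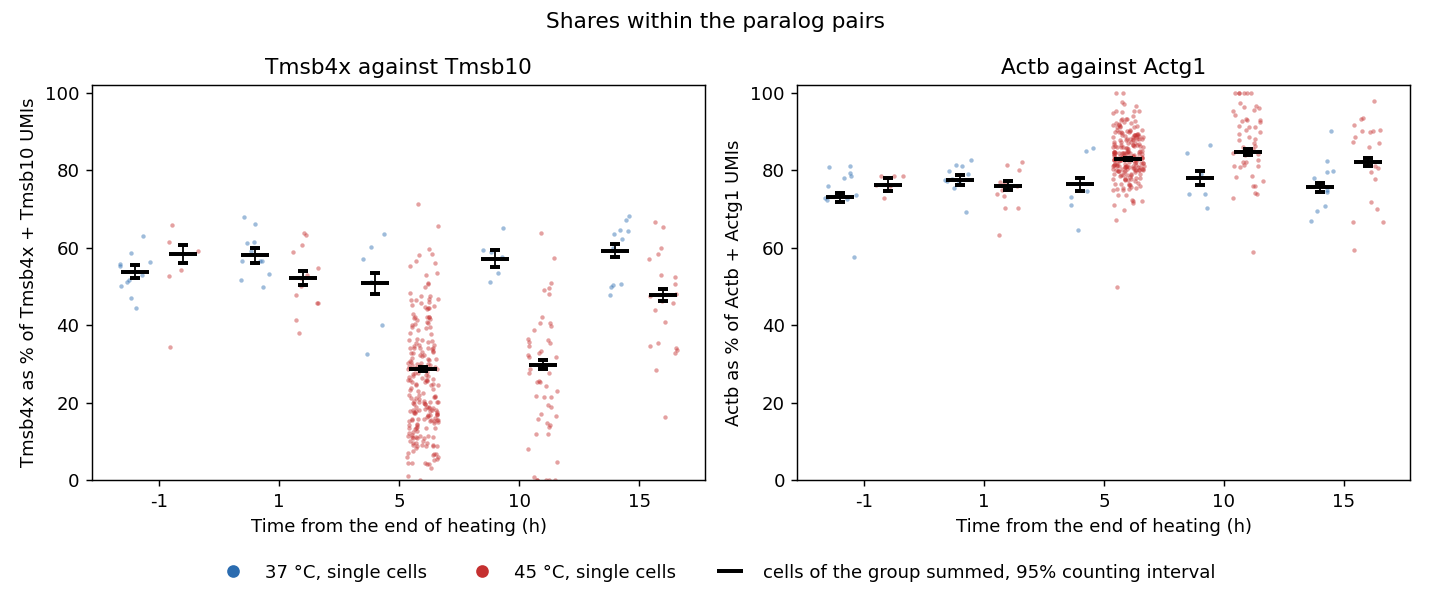
Share of the pair's UMIs, in percent on the y axis, by time from the end of heating on the x axis; points are single cells (blue 37 °C, red 45 °C) and black bars are the cells of a group summed with the 95% counting interval. The left panel shows Tmsb4x of Tmsb4x plus Tmsb10, at 28.8% and 29.9% in heated groups at 5 and 10 h against 50.8% to 59.2% in unheated groups, and the right panel shows Actb of Actb plus Actg1, at 82.1% to 84.7% from 5 h on against 73% to 78%.

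Profilin 1, the product of Pfn1 (chr11:70651850-70654644), loads actin subunits onto growing filament ends. Only 488 UMIs of Pfn1 were counted in all cells, and no group exceeded 56.2 CPM. Its log2 ratio at 10 h, -0.64 (-1.67 to 0.66), and those at the other times after heating all had intervals that reached both sides of 0, so a difference of Pfn1 was not detectable at this depth.

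Cofilin 1, the product of Cfl1 (chr19:5490455-5495201), severs filaments. It was at 1049, 977, 853, 1209 and 951 CPM in the 37 °C arm and at 1080 CPM in the 45 °C arm before heating. After 45 °C it was at 1220, 1104, 884 and 744 CPM at 1, 5, 10 and 15 h. The heated group at 1 h was the highest and the one at 15 h the lowest of the 10 groups. The log2 ratio was 0.32 (0.13 to 0.52) at 1 h, 0.37 (0.17 to 0.58) at 5 h, -0.46 (-0.68 to -0.23) at 10 h and -0.36 (-0.55 to -0.17) at 15 h. Above the highest unheated cell, at 1526 CPM, were 4 of 13 cells at 1 h and 9.87% of the cells at 5 h (6.29% to 14.6%). Below the lowest unheated cell, at 604 CPM, were 18 of 52 cells at 10 h and 8 of 21 at 15 h.

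Arpc2 and Arpc1b encode subunits of the Arp2/3 complex, which starts new branches on the side of a filament. Arpc2 (chr1:74236084-74268209) was at 527 to 657 CPM in unheated groups and at 639, 594, 521 and 609 CPM after 45 °C, and its log2 ratios after heating lay between -0.22 and 0.27. Arpc1b (chr5:145114215-145130705) was at 343 to 494 CPM in unheated groups and at 440, 384, 319 and 259 CPM after 45 °C. Arpc1b thus stood below all unheated groups at 10 and 15 h, with log2 ratios of -0.27 (-0.65 to 0.15) and -0.74 (-1.04 to -0.44). As a share of the UMIs of both subunits, Arpc1b made up 39.4% in unheated cells, with a range of 36.1% to 44.6% over groups, and 40.9%, 39.2%, 38% and 29.9% in heated cells at 1, 5, 10 and 15 h. It lay inside the unheated range at the first 3 times and below it at 15 h (26.2% to 33.8%).

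Coro1a encodes coronin 1A, the coronin of blood cells, which binds filaments and the Arp2/3 complex. It was at 1233, 1145, 939, 1120 and 1137 CPM in the 37 °C arm and at 1228 CPM in the 45 °C arm before heating. After 45 °C it was at 1201, 919, 541 and 634 CPM at 1, 5, 10 and 15 h. The heated groups at 10 and 15 h had overlapping counting intervals and stood apart from the group above them. The lowest, median and highest cell at 10 h was at 0, 456 and 1579 CPM after 45 °C and at 783, 1111 and 1646 CPM at 37 °C, and at 15 h these values were 0, 451 and 1309 CPM against 128.9, 1115 and 1642 CPM. The log2 ratio was 0.07 (-0.12 to 0.25), -0.03 (-0.22 to 0.16), -1.05 (-1.29 to -0.80) and -0.84 (-1.03 to -0.65). At 10 and 15 h, 6.04% and 4.29% of the genes measured had a lower ratio. Coro1a lies on chr7:126699773-126707787 and overlaps Bola2 (chr7:126695401-126699798) on the other strand, only at the edges of both genes. Over its whole length Bola2 had 1546 UMIs in all cells, beside 9925 for Coro1a. Arpc1b overlaps Pdap1 (chr5:145128769-145140238) in part, with 3706 UMIs beside 4049 for the whole genes, and Cfl1 overlaps Snx32, with 11 UMIs beside 11332. Whether strand was used in counting is not given in the sources used here, so reads from the shared stretches cannot be assigned to 1 gene with certainty.

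Myl6 encodes an essential light chain of non-muscle myosin. It was at 377 to 557 CPM in unheated groups and at 562, 411, 418 and 339 CPM after 45 °C. The heated group at 1 h was the highest of the 10 groups and the one at 15 h the lowest. The log2 ratio was 0.52 (0.22 to 0.82) at 1 h, -0.02 (-0.30 to 0.29) at 5 h, -0.41 (-0.73 to -0.07) at 10 h and -0.32 (-0.60 to -0.03) at 15 h, and at 10 h it was -0.03 with all unheated groups as control and 0.13 with the 45 °C cells before heating. When the 10 groups were put in order for each gene, the counting intervals of 14 of 90 neighbouring pairs were apart, all of them for Actb, Actg1, Tmsb4x, Tmsb10 or Coro1a, and the cell ranges overlapped in all 90.

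The members did not share one pattern across the 10 groups. Described by the Pearson correlation of log2(CPM + 1) over the 10 groups, which share cells of 1 line and one normalization, the closest pair was Actg1 with Coro1a (0.97), followed by Actb with Coro1a (0.92) and Actb with Actg1 (0.89). Tmsb10 had values between -0.15 and 0.43 with every other member, and 0.12 with Tmsb4x. Outside the members, 1622 genes with a mean of at least 100 CPM were ranked by their correlation with the members' mean. The 5 highest were Arhgdib (0.97), Cox6b1 (0.96) and Cycs (0.94) of the respiratory chain, Tpm1 (0.95), a tropomyosin that lies along actin filaments, and Bud23 (0.93), a ribosomal RNA methyltransferase. By Spearman correlation, Cyc1 of the respiratory chain came first (0.98), and Arhgdib, Bud23 and Cox7a2, another respiratory chain gene, came next with equal values (0.96).

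SRF binds the CArG box, CC followed by 6 A or T and GG. In windows of 300 bases around gene starts (250 before, 50 after) from the RefSeq promoter table, 9 of the 10 members had an entry, with 13 windows, and Actb was not among them. A CArG box was found, on either strand, in a window of Actg1 and in one of Myl6, and in 1.63% of all 32851 windows. The minimal heat shock element GAANNTTC was found in a window of Arpc2 and in one of Tmsb10, and in 7.86% of all windows. These matches are letters in a window and not evidence of binding. The window of Myl6 with the box lies inside its annotated gene, as do the windows of Arpc2 and Tmsb10 with the heat shock element. In Tmsb10 the match begins at position 2, downstream of the start that the window was set around. The log2 ratios of Myl6 were 0.52, -0.02, -0.41 and -0.32 at 1, 5, 10 and 15 h. A part of SRF in the levels of the members was not tested. The sequence upstream of Actg1 is shown because that gene holds the box and stood below all unheated groups from 5 h on. It covers chr11:120348543-120348745 of GRCm38.p6 and is printed 5′ to 3′ on the minus strand, with the box in capitals.
Actg1: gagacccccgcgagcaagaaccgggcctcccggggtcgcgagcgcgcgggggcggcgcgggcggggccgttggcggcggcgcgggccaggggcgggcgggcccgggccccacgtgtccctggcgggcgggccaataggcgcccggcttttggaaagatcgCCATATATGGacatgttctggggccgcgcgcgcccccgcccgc

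The wider actin system was described with a list of 74 other genes in 10 families, of which 59, 65, 64 and 65 were measured at 1, 5, 10 and 15 h. Lower than the control of the same time were 33, 37, 47 and 38 of them, and at least 1.5-fold lower were 4, 11, 26 and 7. Below all unheated groups were 6, 19, 23 and 20. Their median log2 ratio was -0.04, -0.15, -0.36 and -0.12. Set beside the shares of all genes given above, the largest excess of lower genes was at 10 h.

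At 10 h, 49.5% of all genes measured were lower, and the families differed. Lower were 6 of 7 other Arp2/3 subunits, 6 of 9 cofilin relatives and recycling proteins, 3 of 3 profilins and coronins, 1 of 3 capping and severing proteins, 8 of 13 nucleation promoters and formins, 4 of 6 myosins, 8 of 8 crosslinkers and side binders, 3 of 5 membrane links, 6 of 8 upstream regulators and both measured genes of SRF and its cofactors. The crosslinkers and side binders, which bundle or coat filaments, had a median of -0.68 at 10 h, and 6 of 8 lay below all unheated groups at 15 h, beside 13.3% of all genes and 42.2% of the abundant ones. Of them, Tpm3, a tropomyosin, was at 625 CPM at 15 h against 973 CPM (-0.64, -0.84 to -0.44). Flna, a filamin that links filaments, was at 80.4 CPM at 1 h against 144.1 CPM. That control was the highest unheated group, and the heated value lay inside the unheated range of 69.7 to 144.1 CPM. The other Arp2/3 subunits had medians of -0.36 at 10 h and -0.37 at 15 h. Arpc4, one of them, stood at 441 CPM at 1 h against 339 CPM and at 231 CPM at 5 h against 357 CPM (-0.63, -0.94 to -0.30). Nucleation promoters and formins, which switch on filament growth, had 10 of 13 genes higher at 15 h. At that time 51.8% of all genes measured and 67.6% of the abundant ones were lower. In this family Brk1, a subunit of the WAVE complex, was at 126.4 CPM at 1 h against 189.5 CPM, although its log2 ratio to all unheated groups was -0.04, and Wipf1, a partner of the WASP protein, was at 106.04 CPM at 5 h against 254 CPM (-1.27, -1.64 to -0.86).

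Of the regulators upstream, Arhgdib was at 435 CPM at 10 h against 958 CPM (-1.14, -1.40 to -0.87) and at 507 CPM at 15 h against 867 CPM (-0.77, -0.99 to -0.56). Rac2, a small GTPase of blood cells, was at 634 CPM at 1 h against 526 CPM (0.27, 0.01 to 0.54) and at 312 CPM at 10 h against 566 CPM (-0.86, -1.19 to -0.51). Srf itself was at 65.2 CPM at 5 h against 127.2 CPM (-0.99, -1.49 to -0.39). Mkl1, its actin-sensing cofactor, was at 19.4 CPM at 15 h against 56.2 CPM, a comparison of 13 with 25 UMIs. For Mkl1 too, that control was the highest unheated group, and the heated value lay inside the unheated range of 12.3 to 56.2 CPM. On the higher side stood Capzb, a filament-capping protein, at 1 h (283 against 210 CPM), Myl12a, a myosin regulatory light chain, at 5 h (577 against 427 CPM), and Ssh2, a phosphatase that activates cofilin, at 15 h (138.7 against 78.6 CPM). Myl12b, another myosin regulatory light chain, was at 149.2 against 98.9 CPM at 15 h, and Myo1g, a myosin of blood cells, was at 70.1 against 22.5 CPM, from 47 and 10 UMIs, with a log2 ratio of 1.59 that was 0.28 against all unheated groups. Against all unheated groups, the ratio of Myl12a was 0.19 and that of Myl12b 0.31. Evl, which promotes filament growth, had a log2 ratio of 0.74 at 5 h but -0.53 against all unheated groups, and -1.45 at 10 h (-1.08 against all unheated groups). Arpc5, a further Arp2/3 subunit, stood at 0.40 at 5 h but at -0.27 against all unheated groups.

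Cells of 1 group also differed among themselves. With every cell thinned to 5000 UMIs, which left out 1 cell at 5 h, Tmsb4x had a mean of 6.81 UMIs at 5 h, with 1 at the 10th percentile, 5 at the median and 14 at the 90th percentile. Its Fano factor, the variance over the mean, was 5.65, against a median of 1.35 for 68 genes within 1.5-fold of its mean. In the 51 unheated cells, thinned alike, Tmsb4x had a mean of 21.2 UMIs and a Fano factor of 3.42, against 1.67 for 28 genes of like mean, although these cells come from 6 groups. Actb had a Fano factor of 4.75 at 5 h and 3.30 in unheated cells, Tmsb10 3.50 and 3.03, and Actg1 2.40 and 2.35. Genes of like mean at 5 h had medians of 3.75 for Actb (5 genes, Actb included), 1.62 for Tmsb10 (46 genes) and 1.42 for Actg1 (70 genes). In unheated cells Actb had no other gene of like mean, so its value there has nothing to be set against. Arpc2, at 0.986 and 0.887, stood near the value of 1 that counting alone gives. Thinned to 1000 UMIs, the Fano factor of Tmsb4x at 5 h was 1.96, against 1.08 for 62 genes of like mean, and in unheated cells it was 1.28 against 1.17 for 20 genes.

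Across cells thinned to 5000 UMIs, the 45 pairs of members had a median Pearson correlation of 0.09 at 5 h (-0.13 to 0.36), 0.17 at 10 h (-0.26 to 0.57) and 0.07 in unheated cells (-0.24 to 0.62). The highest pair was Actb with Cfl1 at 5 h (0.36), Actb with Actg1 at 10 h (0.57) and Tmsb4x with Tmsb10 in unheated cells (0.62). Thinned to 1000 UMIs, these pairs had 0.22, 0.49 and 0.073. With the sum of 8 heat shock chaperone genes, Tmsb4x had -0.37 at 5 h, -0.23 in the 47 cells at 10 h and -0.04 in the 51 unheated cells. Thinned to 1000 UMIs, these values were -0.27, 0.05 and -0.36, so the order of the groups depended on the depth and no difference between heated and unheated cells is read. A share taken by one gene also lowers the shares of others. The chaperone sum itself was at 10753 to 13704 CPM in unheated groups and at 12506, 26564, 20939 and 18678 CPM after 45 °C. Its part in the levels of the members was not tested.

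Depth also differed with the groups, and the share of noncoding RNA differed between cells. The lowest unheated cell had 0.998% of its UMIs in the 10 genes. Below it were 5 heated cells at 5 h, 8 of 52 at 10 h and 5 of 21 at 15 h, and these were mostly shallow. Of the 24 heated cells of these times with under 10000 UMIs, 13 lay below that value, and of the other 272 cells, 5 did. Abundant noncoding RNAs, such as the ribosomal precursor Rn45s, took at most 21.4% of an unheated cell and up to 84.6%, 86% and 89.4% of a heated cell at 5, 10 and 15 h. With these RNAs left out of each cell's total, 3, 8 and 4 heated cells lay below the lowest unheated cell. Without cells of under 10000 UMIs, no member's log2 ratio moved by more than 0.09.

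**Figure D4:**
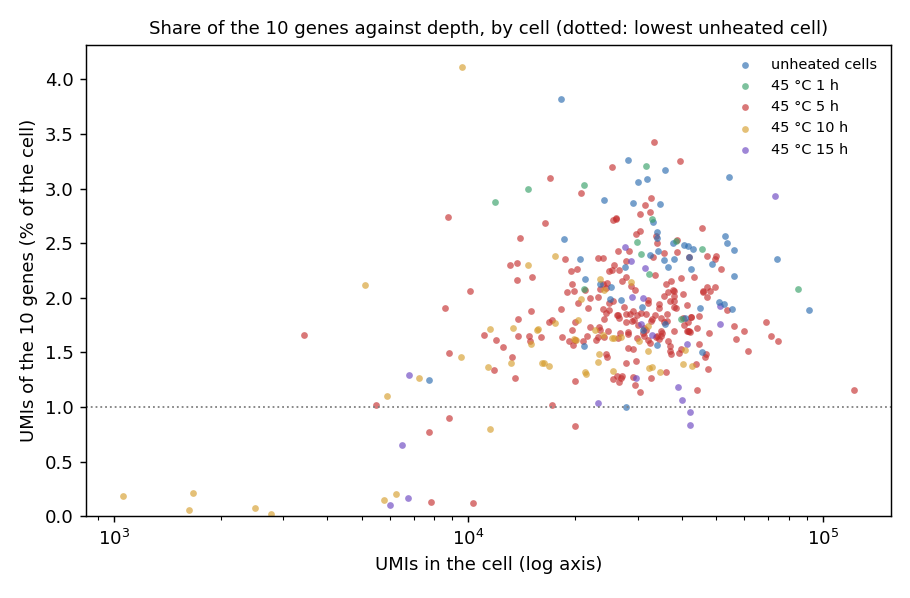
Share of a cell's UMIs that came from the 10 genes, in percent on the y axis, against the UMIs of the cell on a log x axis; each point is 1 cell, and the dotted line is the lowest unheated cell (0.998%). Cells below the line are heated cells from 5 h on, 13 of them with under 10000 UMIs and 5 with more.

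Sums of cell cycle genes stayed mostly within their unheated range. The sum of 10 S phase genes was at 1732 to 2874 CPM in unheated groups and at 2353, 1897, 2184 and 1936 CPM after 45 °C. The sum of 10 genes of G2 and M phase was at 1552 to 2246 CPM in unheated groups and at 1832, 1481, 1815 and 1799 CPM after 45 °C, below the unheated range only at 5 h. Ptprc, Laptm5 and Coro1a, the leukocyte list, summed to 1686 to 2046 CPM in unheated groups and to 1996, 1568, 1282 and 1453 CPM after 45 °C, but Coro1a is itself a member. Ptprc and Laptm5 alone summed to 747 to 848 CPM in unheated groups and to 795, 649, 741 and 819 CPM after 45 °C. This sum lay below the unheated range at 5 h, just under it at 10 h and inside it at 15 h. It joins genes that differed: unheated cells held 959 of 3583 UMIs of Ptprc and 591 of 4008 UMIs of Laptm5. The T cell list summed to 361 to 474 CPM in unheated groups and to 465, 419, 351 and 305 CPM after 45 °C. It lay below its unheated range at 10 and 15 h. The part of these genes in the other results was not tested.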

How the data were processed

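RNA of 360 single C1498 cells in 10 groups was measured. The members and gene lists were chosen with earlier results of these data known. The authors deposited 1 table of estimated counts (UMIs by gene and by cell), without any scaling. Of its 1732996 values above 0, 5.30% were not whole. The submitters' processing notes name STAR and mm10, with no version given. The counting program, the annotation and any cell filter were not given in the sources used here. Spike-in RNA was not analysed here. Every column matched 1 sample.

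No cell was filtered out, and no doublet caller was run, since cells were picked singly. Cells were summed per group, sums were rounded to whole numbers, and CPM were taken over the group's total, which was between 173274 and 6.8091e+06 UMIs. Log2 ratios had 0.5 UMI added to each sum, with exact conditional binomial (Clopper-Pearson) intervals. CPM had exact Poisson intervals and shares exact binomial ones, all at 95%. Those on levels, ratios and shares of UMIs cover counting error only, and those on shares of cells cover the drawing of cells within 1 group. No p-value was computed, since each group is 1 sample. A gene was measured with at least 20 UMIs in the pair and 10 CPM in one group. The scripts were tested on simulated data: point ratios of genes with few UMIs leaned downward at 5 h, which touches the median over all genes there.

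All 10 members are described. Other actin genes were named where their interval bound nearest 0 lay farthest from 0, up to 3 per direction and time, with at least 50 CPM. For like patterns, the 5 highest Pearson correlations were named among genes of at least 100 CPM; Cyc1 and Cox7a2 were named after their values were seen. Alternatives were a total without abundant noncoding RNAs (4 of the 7 listed were used), TMM factors (edgeR 4.0.16, R 4.3.3), equal weight per cell, thinning to 5000 UMIs (1000 for Fano factors and correlations), the whole part of each value, other controls, 1 UMI added, no filter, Spearman correlation, and each cell left out. Leaving out cells of under 10000 UMIs was added after the values had been seen. Python 3.11.15 with numpy 2.4.6, pandas 2.3.3, scipy 1.17.1 and matplotlib 3.10.9 was used.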

Additional observations from a re-analysis of the deposited data

Results flagged for a closer look

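In groups of 4 to 10 cells, 33 sets of member values were examined for a single cell far from the rest, and 2 had one; chance alone gives about 1 in 20. In both, the lowest cell's gap to its nearest neighbour, as a share of the whole range, was above Dixon's 95% critical value for 6 cells. Cell 3 of the 37 °C group at 10 h had Cfl1 at 721 CPM, with the other cells between 1174 and 1398 CPM. Cell 3 of the 45 °C group before heating had Myl6 at 215.3 CPM, with the other cells between 357 and 416 CPM. These cells had 23570 and 18582 UMIs.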

How the results depend on the processing

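No paired analysis was possible because each group is 1 sample, and the numbers in the labels only name cells. With 1 sample per group, every comparison is a description, and the 6-cell controls at 5 and 10 h weigh on it most. For the summed members, the log2 ratio before heating was -0.087 with cells thinned to 5000 UMIs. At 1 h it was 0.22 without abundant noncoding RNAs in the total, 0.34 with TMM scaling, 0.23 as a mean of single cells, 0.22 thinned, 0.074 with all unheated groups as control and -0.044 with the 45 °C cells before heating as control. At 5 h it was 0.16 with TMM scaling, -0.0020 as a mean of cells, 0.035 thinned, and -0.29 and -0.41 with these controls. At 10 h it was -0.78 with TMM scaling, -0.99 as a mean of cells, -0.94 thinned, and -0.54 and -0.66 with these controls. At 15 h it was -0.36 without noncoding RNAs, -0.58 as a mean of cells, -0.61 thinned and -0.55 with the 45 °C cells before heating as control. With each cell left out in turn it ranged from 0.0044 to 0.13 before heating, and from 0.13 to 0.22, -0.14 to 0.064, -0.91 to -0.78 and -0.53 to -0.35 at 1, 5, 10 and 15 h. The members' median at 1 h was 0.0021 with the 45 °C cells before heating as control. Thinned, it was -0.81 at 10 h and -0.64 at 15 h. At 15 h it was -0.61 as a mean of cells and ranged from -0.61 to -0.39 with each cell left out.

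Of single members, Actg1 before heating was 0.046 with all unheated groups as control and ranged from -0.28 to 0.10 with each cell left out, the highest without cell 5 of the 37 °C group, beside -0.19. With all unheated groups as control, Actb at 5 h was -0.085 and Tmsb10 at 10 h was 0.21. With the 45 °C cells before heating as control, Actb at 5 h was -0.18, Tmsb10 was -0.072, 0.074 and -0.027 at 1, 10 and 15 h, and Myl6 at 10 h was 0.13. Actb at 5 h ranged from -0.010 to 0.16 with each cell left out, the lowest without cell 3 of the 37 °C group. The causes were not tested. Leaving out any 1 cell moved 0 of the 50 member ratios by over 1.5-fold. Thinning moved 2, Pfn1 before heating from 0.57 to -1.0 and Myl6 at 10 h from -0.41 to -1.01. The 45 °C control before heating moved Tmsb4x at 5 h to -1.79, and all unheated groups as control moved it at 10 h to -1.40.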
